A study of Macaca mulatta with 20 samples.

Results

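The 10 genes described here encode central parts of the AMPK and mTOR nutrient-sensing pathways: PRKAA1, PRKAA2, STK11, MTOR, RPTOR, DEPTOR, TSC1, TSC2, DDIT4 and TXNIP. They were chosen by name from a table of 18288 genes, though with earlier results of these data known. Each symbol was found on 1 line of the count and TPM tables. The RNA was that of liver tissue sampled from 10 rhesus monkeys (Macaca mulatta). Of these, 5 received a control diet (Control, animals 001, 005, 006, 009 and 010) and 5 a calorie-restricted diet (CR, animals 004, 007, 008, 011 and 012). Each animal was sampled when it entered the study (year 0) and again after 2 years on its diet (year 2), which gave 4 groups of 5 libraries. The year 0 biopsies of both diets were thus taken before the diets had been fed for any time, and no animal carried a genetic change named in the labels. The labels give neither age, sex, degree of restriction nor feeding state at biopsy.

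AMPK is a kinase that is switched on when cellular energy is low, with the help of the upstream kinase LKB1 (encoded by STK11), and it turns off energy-consuming synthesis. mTOR, in a complex with RPTOR, is switched on by amino acids, insulin and energy supply and drives protein and lipid synthesis, while the TSC complex of TSC1 and TSC2 holds it back. DDIT4 and TXNIP are quickly regulated inhibitors of growth and of glucose uptake, and in the liver both respond to feeding, fasting and hormones. AMPK and mTOR are controlled largely by phosphorylation, which RNA levels do not show.

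Library totals ran from 15421789 to 31440640 estimated counts. The shallowest library, Control 009 at year 2, and Control 001 at year 2 stood apart from the other 18, with scaling factors of 1.66 and 0.763 against 0.900 to 1.11 elsewhere. Control 009 at year 2 also had the lowest summed TPM of 12 hepatocyte markers, 119564, and the highest of 10 stellate cell markers, 1268, against 109.8 to 656 in the other 19 libraries. The sum of 15 macrophage markers was 1150 to 1770 TPM in Control and 1905 to 2412 TPM in CR at year 0, without overlap, and 1450 to 2918 against 983 to 2148 TPM at year 2. Markers of muscle, fat, kidney and pancreas (MYH7, LEP, UMOD, PRSS1) were at 0 in all 20 libraries, while other genes of those lists were detected. The summed TPM of the lists was 0.52 to 16.98 for skeletal muscle, highest in Control 009 at year 2, 14.47 to 76.23 for adipocytes and 13.09 to 63.75 for kidney, pancreas and gut. The part of cell composition in the results below was not tested, and in such bulk tissue fewer cells of a type and less RNA per cell cannot be told apart.

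The genes lay at very different levels on the TPM scale, which allows for gene length. The highest median levels over 20 libraries were those of TXNIP at 214 TPM and DDIT4 at 183 TPM, and the order of these neighbours was not firm, as TXNIP was the higher in 12 of 20 libraries. TSC2 followed at 16.6 TPM. PRKAA1 at 11.7, MTOR at 11.2 and STK11 at 9.85 TPM overlapped, PRKAA1 being above MTOR in 13 libraries and MTOR above STK11 in 14. TSC1 had a median level of 6.45 TPM, RPTOR 4.69 TPM and DEPTOR 3.82 TPM. PRKAA2 was lowest at 0.195 TPM, below DEPTOR in 20 of 20 libraries. Among all 13730 genes tested, TXNIP and DDIT4 were at the 96.2nd and 95.5th percentile of these medians, TSC2 at the 68.3rd, PRKAA1 at the 59.9th and RPTOR at the 37.9th, and PRKAA2 was at the 2.94th.

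**Figure D1:**
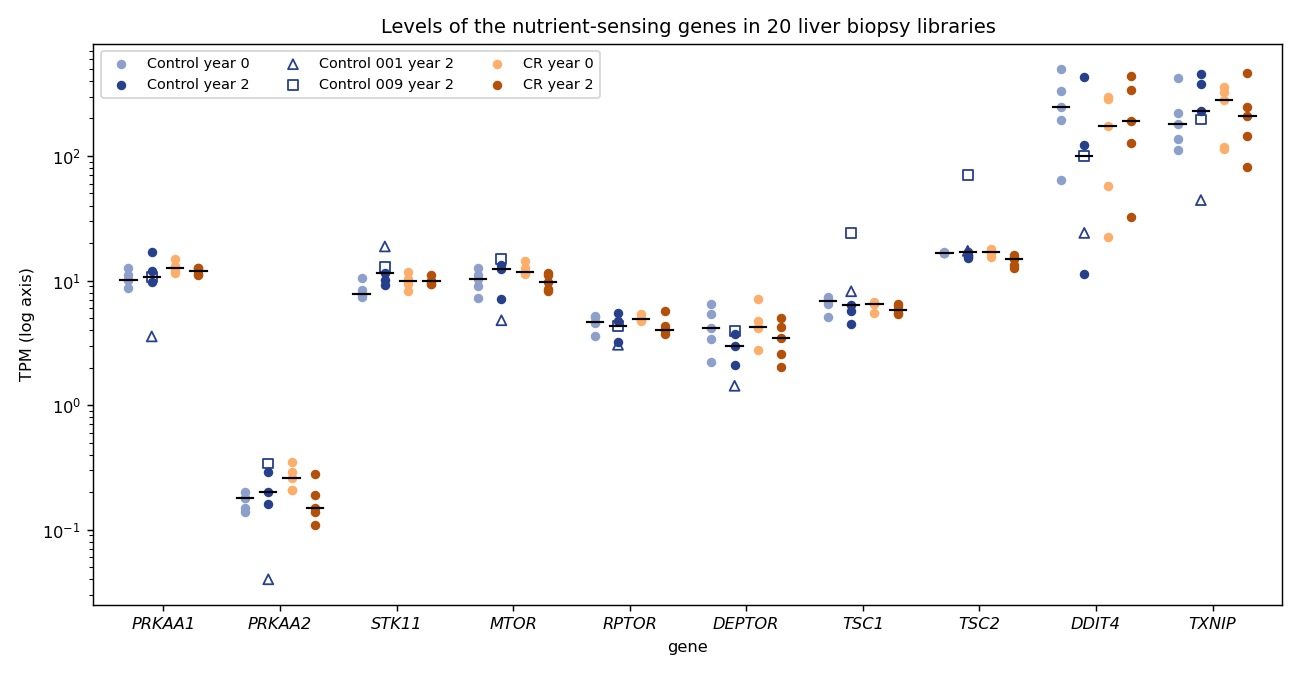
Level of each gene in TPM (log axis) in the 20 libraries, by diet and year, with short bars at the group medians and open symbols for Control 001 and Control 009 at year 2. DDIT4 and TXNIP have the highest group medians and PRKAA2 the lowest.

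No difference of any of the 10 genes between diets or over 2 years passed the test against the spread between animals. All 10 passed the filter on low counts in each comparison. In the change from year 0 to year 2 within CR, edgeR's quasi-likelihood test with Benjamini-Hochberg adjustment called 0 of the 10 genes, against 0% of 13730 genes tested, and 0 genes had an unadjusted p under 0.05, against 2.89% of all genes. In the change within Control it called 0 of 10, against 0% of all genes, and 1 gene (DEPTOR) had an unadjusted p under 0.05, against 14.6%. In the difference between these changes it called 0 of 10, against 0%, with 0 below 0.05 unadjusted, against 6.85%. Between diets at year 2 it called 0 of 10, against 0% of 13345 genes, with 0 below 0.05 unadjusted, against 7.03%. Between diets at year 0 it called 0 of 10, against 0.242% of 13244 genes, with 0 below 0.05 unadjusted, against 18.3%. DESeq2 and limma on log2(TPM + 1) also called 0 of the 10 genes in each of these 5 comparisons. By these tools the members with an unadjusted p under 0.05 differed in part from edgeR's. DESeq2 gave DEPTOR and DDIT4 for the change in Control, DDIT4 for the difference between the changes and TSC2 between diets at both times. For limma they were STK11 and DDIT4 for the change in Control, DDIT4 for the difference, and PRKAA1 and MTOR between diets at year 0. The share of all genes with an unadjusted p under 0.05 was not counted for DESeq2 and limma. These names therefore cannot be set against a background. DESeq2 called 0.131%, 1.53%, 0.299%, 0.0525% and 5.89% of all genes in the same order, and limma called 2.9% at year 0 and 0% in the other 4.

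The width of the intervals shows how much change could have gone unseen. For the change in CR, the 95% intervals of 8 of the 10 genes lay within a doubling and a halving, and the same held for 8 genes in Control and for 8 genes between diets at year 0. For the diet comparison at year 2 and for the difference between the changes, 4 of 10 intervals were that narrow. Counts were also simulated from these libraries, with 200 genes drawn at random and changed in CR. The simulated counts held no lasting differences between animals, and so many planted changes ease the adjustment. In that setting the same test called 18.5% of the genes changed 2-fold and 87.5% of those changed 4-fold. Changes of the smaller size were thus mostly not called there, and the shares need not carry over to the real data. For the members with the narrow intervals, a 2-fold change nevertheless lay outside the interval. The groups of CPM values (counts scaled to the library total after TMM) overlapped between diets for 10 of 10 genes at both times, against 4.99% of all genes without overlap at year 0 and 0.757% at year 2.

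**Figure D2:**
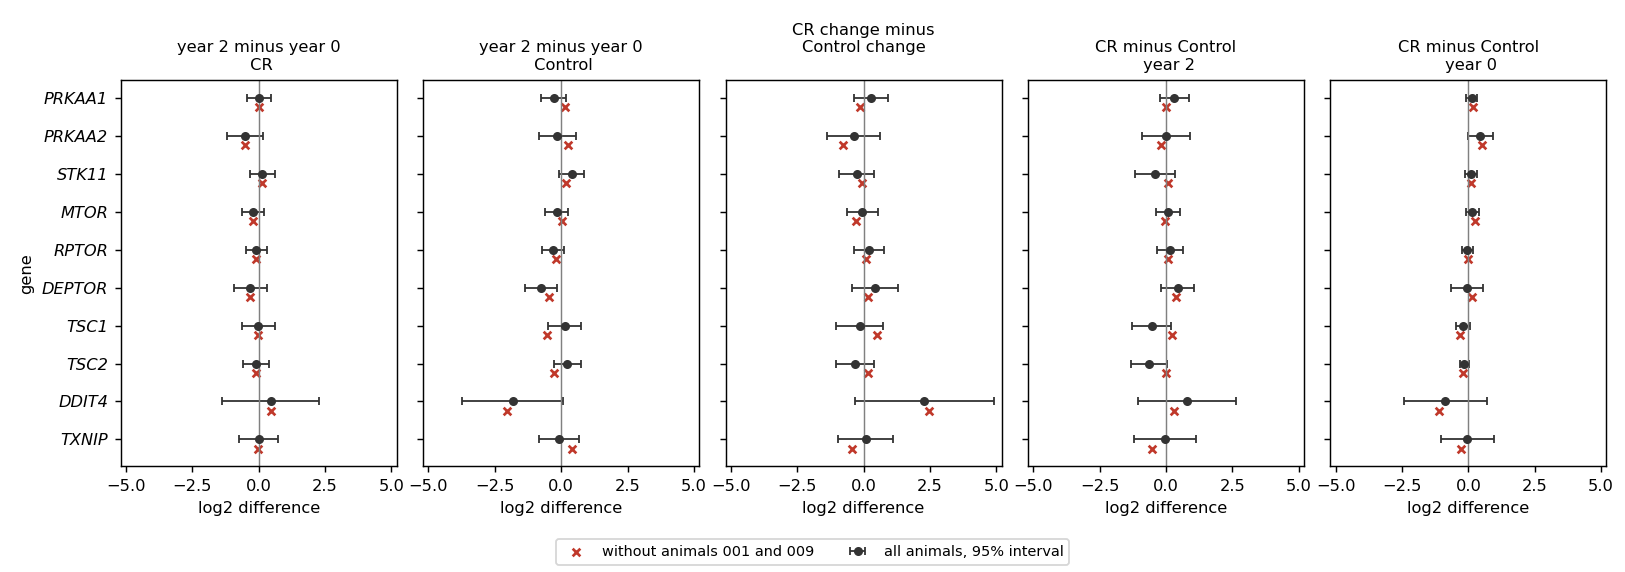
Log2 difference of each gene in the 5 comparisons, with black points and 95% intervals from edgeR fits of all animals and red crosses for the same fits without animals 001 and 009. The DDIT4 intervals are the widest in each panel. For the change in Control, the crosses of PRKAA1, PRKAA2, MTOR, TSC1, TSC2 and TXNIP lie on the other side of 0 from the points.

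Of the AMPK catalytic subunits, the liver used almost only the gene for the alpha 1 subunit at the RNA level. PRKAA1 made up 96.9% to 99.0% of the summed TPM of PRKAA1 and PRKAA2 in the 20 libraries, with a mean of 98.4% ± 0.339 (SD, n = 5) in Control and 97.9% ± 0.572 in CR at year 0, and 98.2% ± 0.768 and 98.6% ± 0.522 at year 2. PRKAA1 stood at 32.8 ± 2.18 CPM (SD, n = 5) in Control and 35.7 ± 4.65 CPM in CR at year 0. At year 2 it stood at 28.4 ± 10.6 CPM in Control and 35.6 ± 1.57 CPM in CR. The wider spread of Control at year 2 came from 16.9 CPM in animal 001, 19.6 CPM in 009 and 42.7 CPM in 005. Its log2 change was 0.01 ± 0.21 (SE) in CR and -0.28 ± 0.21 in Control (edgeR adjusted p = 0.999 and 0.497), and without animals 001 and 009 the Control value was 0.14.

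PRKAA2, which encodes the alpha 2 subunit best known from muscle, rested on 7 to 58 counts per library. Its CPM in CR were 1.85, 1.11, 1.53, 1.11 and 1.43 at year 0 in animals 004, 007, 008, 011 and 012, and 1.72, 0.640, 1.08, 0.765 and 0.873 at year 2. The later biopsy was the lower in 5 of 5 CR animals, a pattern that 5.67% of all genes showed, though the groups overlapped. In Control the CPM were 1.00, 1.17, 0.955, 1.26 and 0.820 at year 0 in animals 001, 005, 006, 009 and 010, and 0.356, 1.42, 0.895, 1.17 and 1.14 at year 2, higher in 2 of 5 animals. The log2 change of PRKAA2 was -0.52 ± 0.32 (SE) in CR (edgeR adjusted p = 0.999) and -0.14 ± 0.32 in Control (adjusted p = 0.834), and their difference was -0.38 ± 0.45 (adjusted p = 0.849). Without animals 001 and 009 the Control change was 0.24 and the difference -0.76 ± 0.37 (edgeR adjusted p = 0.497). Before the diets, PRKAA2 was 0.44 ± 0.21 log2 units higher in CR than in Control, with an edgeR adjusted p of 0.310. On the TPM scale, PRKAA2 was the 1 gene of the 10 whose values at year 0 did not overlap between diets, with 0.14 to 0.20 TPM in Control and 0.21 to 0.35 TPM in CR (limma adjusted p = 0.269), against 6.58% of all genes without overlap. At year 2, 0 of the 10 genes were without overlap in TPM, against 0.704%.

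STK11, the gene for the kinase that phosphorylates AMPK, varied little outside 1 library on the CPM scale. It stood between 18.998 and 28.7 CPM in the 18 libraries without Control 001 and 009 at year 2, at 18.9 CPM in Control 009 at year 2 and at 72.4 CPM in Control 001 at year 2. Its log2 change in Control was 0.39 ± 0.22 (SE, edgeR adjusted p = 0.391), and it was 0.12 without animal 001. In CR it was 0.13 ± 0.22 (adjusted p = 0.999). Between diets at year 2 the difference was -0.41 ± 0.35 (adjusted p = 0.725), and 0.15 without animal 001. On the CPM scale both values thus rested on 1 library. In TPM, STK11 was higher at year 2 in each Control animal. It stood at 10.57, 7.74, 7.63, 7.35 and 8.47 TPM at year 0 in animals 001, 005, 006, 009 and 010. At year 2 it stood at 18.78, 11.55, 9.17, 12.85 and 10.06 TPM. There limma on log2(TPM + 1) gave a change of 0.50 in Control (limma adjusted p = 0.363) and 0.01 in CR. Its diet difference at year 2 was -0.26 (limma adjusted p = 0.925).

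MTOR, the kinase at the centre of the pathway, differed little between groups. It stood at 53.9 ± 7.54 CPM (SD, n = 5) in Control and 59.6 ± 4.84 CPM in CR at year 0, and at 48.4 ± 11.1 and 51.2 ± 7.51 CPM at year 2. The later biopsy was the lower in 4 of 5 CR animals and in 3 of 5 Control animals. The log2 change was -0.23 ± 0.19 (SE) in CR and -0.17 ± 0.19 in Control, with edgeR adjusted p = 0.999 and 0.643. The difference of these changes was -0.06 with a 95% interval from -0.64 to 0.53, which lies within a doubling and a halving.

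RPTOR, the scaffold that brings substrates to mTOR complex 1, stood at 17.5 ± 1.96 CPM (SD, n = 5) in Control and 16.9 ± 0.814 CPM in CR at year 0, and at 14.5 ± 3.67 and 16.02 ± 3.08 CPM at year 2. It was lower at year 2 in 4 of 5 animals of each diet, by -0.10 ± 0.18 (log2, SE) in CR and -0.31 ± 0.18 in Control (edgeR adjusted p = 0.999 and 0.413). One CR library, from animal 007 at year 2, held 21.4 CPM against 13.9 to 15.6 CPM in the other 4 of that group. The TPM ratio of MTOR to RPTOR had a median of 2.34 over 20 libraries and ran from 1.57 to 3.45.

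DEPTOR, an inhibitor that binds mTOR in both of its complexes, was the gene of the 10 with an unadjusted p under 0.05 by edgeR, for the change in Control. Its CPM in Control were 9.26, 3.78, 5.57, 6.75 and 8.16 at year 0 in animals 001, 005, 006, 009 and 010, and 3.46, 4.71, 3.03, 3.63 and 4.39 at year 2. In CR they were 6.53, 3.88, 5.76, 10.1 and 6.15 at year 0 in animals 004, 007, 008, 011 and 012, and 5.55, 6.54, 3.01, 7.17 and 3.93 at year 2. Thus 4 of 5 animals of each diet had less DEPTOR RNA at the later biopsy, the exceptions being Control 005 and CR 007, and the groups overlapped. The log2 change was -0.76 ± 0.29 (SE) in Control (edgeR adjusted p = 0.313) and -0.32 ± 0.28 in CR (adjusted p = 0.999). Their difference was 0.44 ± 0.40 (adjusted p = 0.813), so the change was not shown to differ between diets. Without animals 001 and 009 the Control value was -0.47 ± 0.34 (adjusted p = 0.735).

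TSC1 and TSC2, the subunits of the complex that keeps RHEB and so mTOR complex 1 inactive, varied together and were highest in the same 2 Control libraries. TSC2 in Control stood at 51.6, 59.7, 58.6, 56.6 and 52.9 CPM at year 0 in animals 001, 005, 006, 009 and 010, and at 88.1, 45.8, 45.8, 136 and 48.4 CPM at year 2. In CR it stood at 45.4, 49.7, 48.8, 53.4 and 52.2 CPM at year 0 in animals 004, 007, 008, 011 and 012, and at 50.8, 52.3, 41.3, 46.5 and 41.2 CPM at year 2. Control 001 and 009 at year 2 lay above every other library, and the other 3 Controls of that year lay within the CR range. TSC1 was also highest in those 2 libraries, with 65.8 CPM in Control 001 and 74.0 CPM in Control 009 against 21.7 to 42.4 CPM in the other 18. Controls 005 and 006 at year 2, with 24.4 and 21.7 CPM of TSC1, lay below the CR range of that year, 26.7 to 34.8 CPM.

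The estimates for the TSC genes changed sign in Control without those animals. The log2 change of TSC2 in Control was 0.23 ± 0.24 (SE, edgeR adjusted p = 0.619) and -0.27 ± 0.13 without animals 001 and 009 (adjusted p = 0.660). That of TSC1 was 0.13 ± 0.29 (adjusted p = 0.834) and -0.54 ± 0.16 without them (adjusted p = 0.549). In CR the changes were -0.11 ± 0.23 for TSC2 and -0.02 ± 0.28 for TSC1, both with an adjusted p of 0.999. Between diets at year 2, TSC2 differed by -0.66 ± 0.31 (adjusted p = 0.659) and by -0.01 ± 0.13 without the 2 animals. TSC1 differed by -0.54 ± 0.34 (adjusted p = 0.668) and by 0.22 ± 0.15 without them.

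The TPM ratio of TSC2 to TSC1 lay between 2.11 and 3.37 in 20 libraries, with a median of 2.50 and group means from 2.46 to 2.76. On the TPM scale Control 009 at year 2 was again the highest, with 70.2 TPM for TSC2 and 24.2 TPM for TSC1, but Control 001 at year 2, at 17.3 and 8.20 TPM, lay close to the other libraries. The 2 scales thus place Control 001 differently. The annotation of another rhesus assembly places TSC2 in overlap with PKD1 and MTOR in overlap with ANGPTL7, and as the strand setting of the counting is not given in the sources used here, reads of such neighbours may not have been told apart.

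Only TSC1 and TSC2 among the 10 had more than 1 transcript in the tables, 3 each. One TSC2 transcript supplied 43.7% to 85.8% of the counts of the gene, and one TSC1 transcript ranged from 0% to 100%, so that the split of TSC1 reads between transcripts varied widely from library to library. Transcript shares of both genes passed no test in the 5 comparisons (diffSpliceDGE of edgeR, Simes p from 0.0990 to 0.969, adjusted p = 1.00 for each after rounding). Among the 1180 genes with several transcripts, the same test called 0%, 0.254%, 0.169%, 0% and 0.169% for the change in CR, the change in Control, their difference, year 2 and year 0.

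DDIT4, also called REDD1, releases the TSC complex to inhibit mTOR complex 1 and is induced by low oxygen, low energy and glucocorticoids. It was the most variable of the 10 genes, spanning 57.1-fold from its lowest to its highest library. Its CPM in Control were 58.2, 263, 512, 337 and 184 at year 0 in animals 001, 005, 006, 009 and 010, and 36.8, 8.95, 111, 58.3 and 396 at year 2. In CR they were 49.8, 250.2, 259, 19.6 and 159 at year 0 in animals 004, 007, 008, 011 and 012, and 32.4, 187, 118, 305 and 420.4 at year 2. In Control 4 of 5 animals had less DDIT4 RNA at year 2 and animal 010 had more, and in CR 3 animals had less and 2 had more. The lowest library was Control 005 at year 2, and the 4 groups overlapped broadly.

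The DDIT4 estimates pointed in opposite directions in the diets but were not separated from each other. The log2 change was -1.83 ± 0.88 (SE) in Control (edgeR adjusted p = 0.351) and 0.46 ± 0.84 in CR (adjusted p = 0.999). The difference was 2.28 ± 1.21, with a 95% interval from -0.34 to 4.90 (edgeR adjusted p = 0.738). The CR value turned to -0.22 without animal 011, whose own change was 3.96 log2 units, and the Control value was -1.11 without animal 005, whose own change was -4.87 log2 units. Between diets the log2 difference was -0.87 ± 0.70 at year 0 and 0.79 ± 0.85 at year 2 (edgeR adjusted p = 0.534 and 0.769). With 1 animal left out at a time, it ran from -1.17 without animal 008 to -0.51 without 006 at year 0, and from 0.39 without 012 to 1.96 without 010 at year 2. The median absolute change between an animal's biopsies was 1.27 log2 units, at the 96.9th percentile of all genes tested.

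TXNIP, which binds thioredoxin and limits glucose uptake and is induced by glucose, had estimates near 0 in both diets. Its CPM in Control were 178, 345, 785, 395 and 233 at year 0 in animals 001, 005, 006, 009 and 010, and 119, 325, 725, 202 and 627 at year 2. In CR they were 182, 508, 431, 179.9 and 579 at year 0 in animals 004, 007, 008, 011 and 012, and 147, 252, 408, 332 and 805 at year 2. The groups covered nearly the same range, and the later value was the higher in 1 of 5 Control and 2 of 5 CR animals. The log2 change was -0.08 ± 0.34 (SE) in Control and -0.01 ± 0.34 in CR, with edgeR adjusted p = 0.912 and 0.999. Their difference was 0.07 with a 95% interval from -0.97 to 1.12. Without animals 001 and 009 the Control value was 0.42 ± 0.39 (adjusted p = 0.793).

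**Figure D3:**
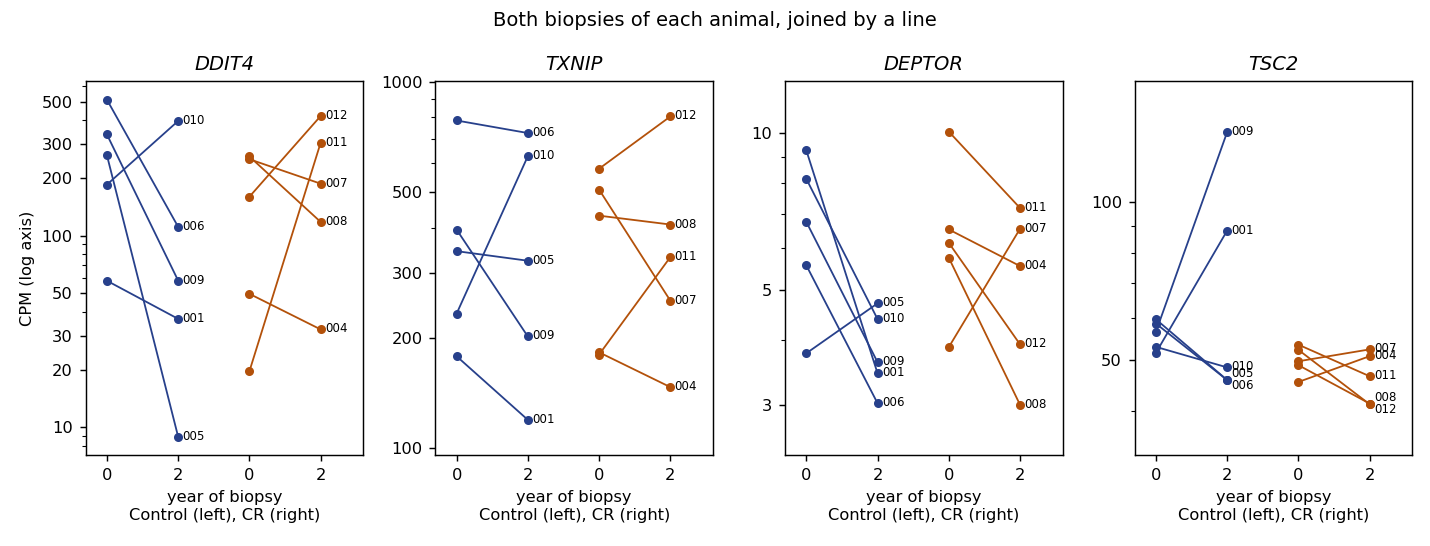
CPM (log axis) of DDIT4, TXNIP, DEPTOR and TSC2 at both biopsies of each animal, joined by a line and labelled by animal, Control in blue on the left and CR in brown on the right. DEPTOR is lower at year 2 in 4 of 5 animals of each diet, DDIT4 lines cross in both diets, and TSC2 is highest in Controls 001 and 009 at year 2.

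The spread of these genes over libraries differed widely. The SD of log2 CPM over 20 libraries was 1.63 for DDIT4, the 179th largest of 13730 genes, against a median of 0.447 over all genes. Among the 967 genes at least as abundant as DDIT4, 3 were more variable. TXNIP had an SD of 0.84, at the 88.1st percentile, and PRKAA1, STK11 and TSC2 had SDs of 0.32, 0.41 and 0.39, at the 26.1st, 43.6th and 39.9th. Over the 18 libraries without Control 001 and 009 at year 2, the SD of DDIT4 was 1.64, while PRKAA1, STK11 and TSC2 had SDs of 0.15 each, between the 8.73rd and 8.97th percentile. MTOR and RPTOR had SDs of 0.24 and 0.20 there, and PRKAA2 and DEPTOR, with far fewer counts, 0.39 and 0.51. At year 0 alone, before the diets, DDIT4 already varied with an SD of 1.47 over the 10 animals, at the 98.4th percentile.

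**Figure D4:**
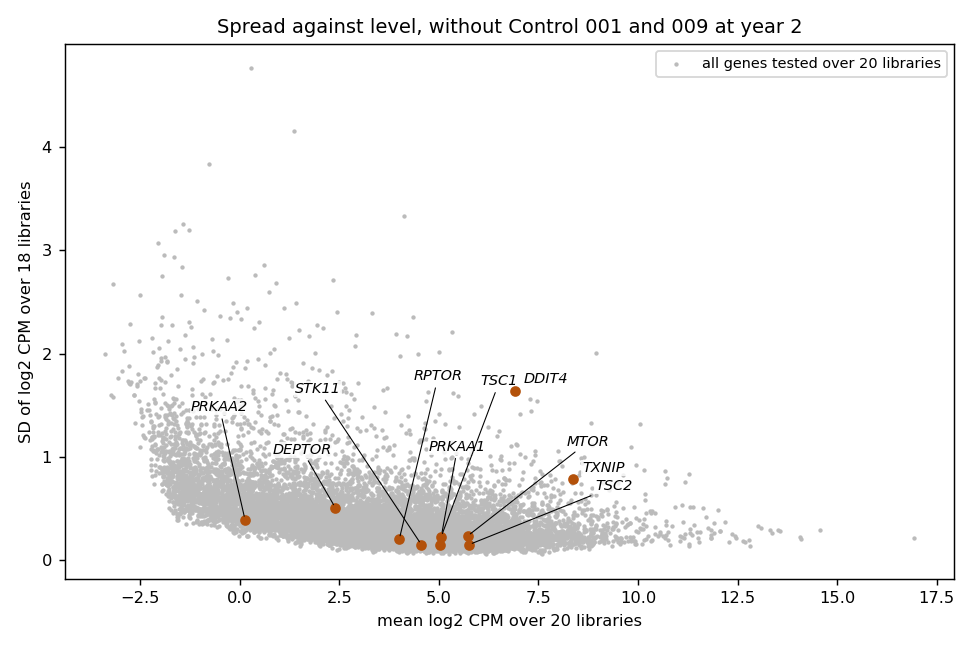
SD of log2 CPM over the 18 libraries without Control 001 and 009 at year 2, against mean log2 CPM over 20 libraries, for all genes tested (grey) and the 10 nutrient-sensing genes (brown, named). DDIT4 at 1.64 and TXNIP at 0.79 lie above most genes of their level, and PRKAA1, STK11 and TSC2 lie low in the cloud, with 0.15 each.

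Among the 45 pairs of the 10 genes, 3 had a Spearman correlation of log2 CPM of at least 0.5 both over 20 libraries and over the 18. The share of all gene pairs at that level was not counted. Over 20 libraries, 5.02% of all other genes reached 0.5 with DDIT4 and 7.46% with TXNIP. The 3 pairs are therefore not read as a result about the 10 genes. These correlations describe libraries that share animals, scaling and depth. DDIT4 and TXNIP correlated at 0.73 over 20 libraries and 0.67 over 18, at 0.67 over the 10 animals at year 0 and 0.68 at year 2, and their changes between biopsies correlated at 0.47. TSC1 and TSC2 correlated at 0.76 over 20 libraries and 0.67 over 18, and their changes at 0.92. MTOR and DEPTOR correlated at 0.57 over 20 libraries and 0.51 over 18, at 0.66 at year 0 and 0.33 at year 2. Negative values of like size over 18 libraries were -0.59 for DEPTOR and TXNIP, -0.58 for PRKAA1 and DDIT4 and -0.52 for MTOR and DDIT4. Over 20 libraries these were -0.31, -0.32 and -0.33.

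DDIT4 levels ran with those of genes that glucocorticoid hormone is known to induce. Of 12 such genes, 11 correlated with DDIT4 at a Spearman value of at least 0.5 over the 20 libraries, against 5.02% of all 13729 other genes tested. The median over the 12 was 0.68 over 20 libraries and 0.67 over 18, against 0.00 over all genes. The highest values were those of KLF9, a transcription factor, at 0.82, and of TAT and ERRFI1, which encode tyrosine aminotransferase and an inhibitor of EGF receptor signalling, at 0.79 each. CDKN1A, a cell cycle inhibitor, was the exception at 0.30. TXNIP correlated at 0.5 or more with 9 of the 12 (7.46% of all genes), most with the kinase gene SGK1 at 0.89. For the 14 genes listed as the stress factor ATF4 and its targets, the count was 5 with DDIT4 and 4 with TXNIP. SESN2 was at 0.73 with DDIT4 and 0.62 with TXNIP. For 15 AMPK substrates and related kinases it was 4 with DDIT4 and 3 with TXNIP, SIK3 being at 0.70 and 0.75. G6PC was at 0.71 with both, and ARRDC3 at -0.77 with DDIT4 and -0.85 with TXNIP. High values were thus not confined to the glucocorticoid list, and the cause of these likenesses was not tested.

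**Figure D5:**
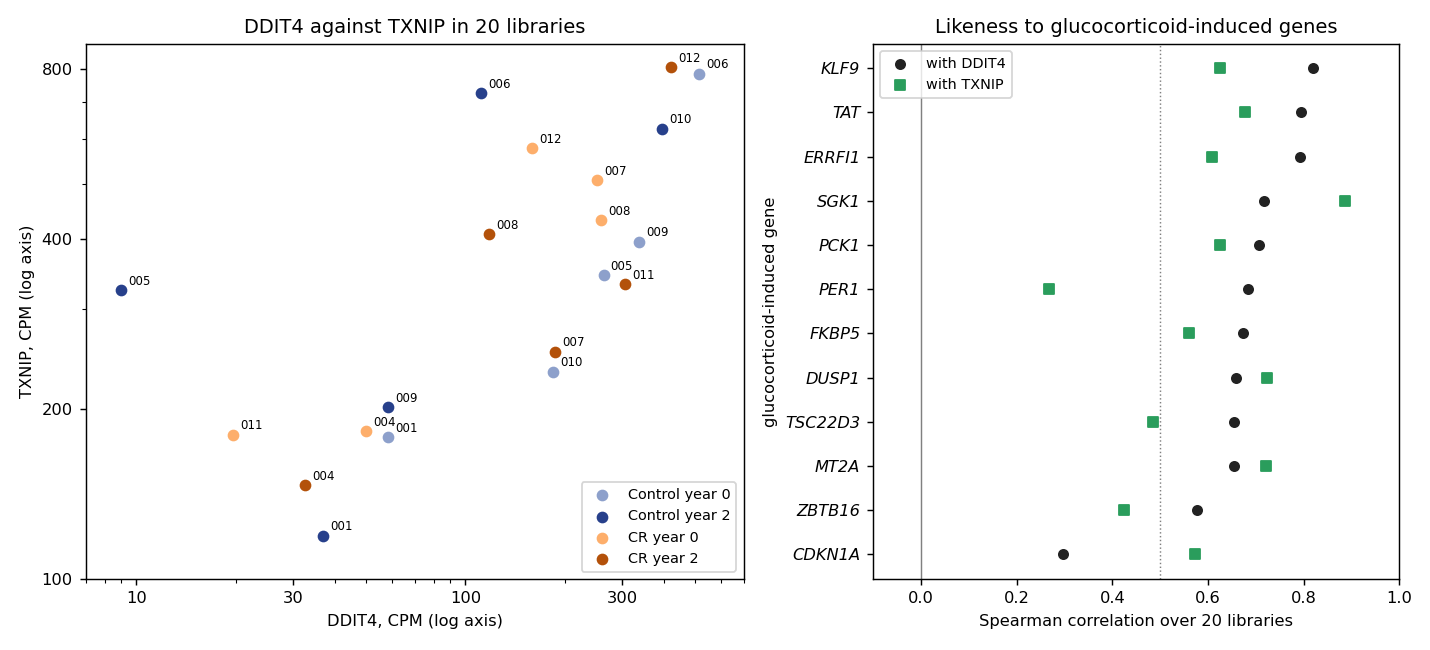
Left, CPM of TXNIP against DDIT4 (log axes) in 20 libraries, labelled by animal and coloured by diet and year. Right, Spearman correlation over 20 libraries of 12 glucocorticoid-induced genes with DDIT4 (black circles) and TXNIP (green squares), with a dotted line at 0.5, which 11 genes pass for DDIT4 and 9 for TXNIP.

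The genes whose log2 CPM ran most like each of the 10 were taken by Spearman correlation over the 20 libraries. For DDIT4 they were CNNM1, RAB28 and IRF2, at 0.88 to 0.89, and for TXNIP FAM134B, KDM3A and RBMS1, at 0.91 each. TSC1 was closest to ERICH1, ABCD4 and APOL5 at 0.87 to 0.89, and TSC2 to SEMA3F, SLC23A1 and ARSD at 0.86 to 0.88. DEPTOR was closest to CBX5, MBNL3 and ZKSCAN1 at 0.87 to 0.88, and MTOR to IBTK, GALNT10 and MOB1A at 0.86 to 0.87. RPTOR was closest to SUN2, NFE2L1 and RCBTB2 at 0.76 to 0.81, STK11 to DCTN3, OSBPL1A and CDC34 at 0.77 to 0.82, and PRKAA1 to GCLM, AGMO and FTSJ2 at 0.82 to 0.86. PRKAA2, with its low counts, was closest to NPEPPS, PAPD5 and CRTC3 at 0.68 to 0.77. Over 18 libraries these values lay between 0.66 and 0.91, but those libraries are part of the 20 used for the picking.

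Of 133 genes in 12 lists around AMPK and mTOR, 132 were in the tables, and 128 (126 at year 0) were tested. edgeR's quasi-likelihood test called 0 of them in each of the 5 comparisons. Unadjusted p values under 0.05 were found for 2 genes in the change in CR (1.56%, against 2.89% of all genes), 19 in the change in Control (14.8%, against 14.6%) and 13 in the difference (10.2%, against 6.85%). Between diets there were 12 at year 2 (9.38%, against 7.03%) and 18 at year 0 (14.3%, against 18.3%). DESeq2 called 1, 5, 0, 0 and 5 of them, against 0.131%, 1.53%, 0.299%, 0.0525% and 5.89% of all genes. Without animals 001 and 009 edgeR called 0 in the first 4 comparisons and 2 at year 0, namely ULK1, the autophagy kinase, and MLXIP, a glucose-sensing transcription factor, against 1.69% of 13478 genes called in that setting.

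Within AMPK, the 6 subunit genes tested had a median log2 change of 0.03 in CR and -0.12 in Control, beside 0.00 over all genes in each. PRKAB2, a scaffold subunit, had the smallest p in Control, from 102 ± 29.6 to 68.5 ± 20.6 CPM (SD, n = 5; log2 change -0.59 ± 0.23, SE, edgeR adjusted p = 0.316), and -0.18 without animals 001 and 009. Among 11 upstream kinases and regulators, FNIP2, a partner of folliculin, went from 125 ± 27.8 to 49.9 ± 26.5 CPM in Control, with an edgeR adjusted p of 0.297 and a DESeq2 adjusted p of 0.0265, and its log2 change of -1.48 was -0.78 without animals 001 and 009. Among 15 AMPK substrates and related kinases, TBC1D1, which governs glucose transporter traffic, stood at 16.4 ± 1.89 CPM in CR and 11.4 ± 1.23 CPM in Control at year 0, before the diets (edgeR adjusted p = 0.0684, DESeq2 adjusted p = 0.00220). It stood at 11.8 ± 1.93 CPM in CR and 14.3 ± 5.02 CPM in Control at year 2.

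Around mTOR, the 11 genes for complex subunits and assembly factors had medians of -0.07 in CR and -0.17 in Control. AKT1S1, an inhibitory subunit, changed by -0.33 ± 0.15 log2 units (SE) in Control (edgeR adjusted p = 0.332). The 14 genes of GATOR, KICSTOR and the amino acid sensors, which relay amino acid supply to mTOR complex 1, had a median difference between diets of -0.42 at year 2, beside -0.07 over all genes, and -0.02 without animals 001 and 009. There ITFG2 and KPTN had the smallest p, with log2 differences of -1.31 ± 0.48 and -0.97 ± 0.38 (edgeR adjusted p = 0.659 for each) that were -0.19 and -0.11 without these animals. Among 18 substrates of mTOR complex 1, TFEB, a regulator of lysosome genes, went from 7.19 ± 1.09 to 12.3 ± 4.30 CPM (SD, n = 5) in Control, with an edgeR adjusted p of 0.297 and a DESeq2 adjusted p of 0.0439, and its log2 change of 0.72 was 0.45 without animals 001 and 009. In CR the mean of TFEB was 9.67 CPM at year 0 and 9.49 CPM at year 2. The mean was thus already higher in CR than in Control before the diets, and DESeq2 but not edgeR called that difference.

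The stress-induced inhibitors other than DDIT4 included the largest estimate of the lists in CR. DDIT4L, a relative of DDIT4 that also restrains mTOR complex 1, stood at 7.58, 0.296, 0.187, 0.119 and 0.102 CPM at year 0 in CR animals 004, 007, 008, 011 and 012, and at 12.7, 4.23, 4.79, 0.364 and 0.238 CPM at year 2. All 5 CR animals had more of it at the later biopsy, as did 4 of 5 Controls, and the groups overlapped. The share of all genes higher in 5 of 5 CR animals was not counted. In CR the counts went from 238 to 281 in animal 004, 8 to 119 in 007 and 6 to 137 in 008. They went from only 3 to 10 in 011 and 3 to 6 in 012. Its log2 change in CR was 2.48 ± 0.65 (SE, edgeR adjusted p = 0.999), with a DESeq2 adjusted p of 0.0211, and the difference from Control was 2.17 ± 0.88 (edgeR adjusted p = 0.696). Control 001 and CR 004 had the highest DDIT4L at both biopsies and DDIT4 below the median of the 20 libraries. Yet the libraries lowest in DDIT4, Control 005 at year 2 and CR 011 at year 0, held only 0.461 and 0.119 CPM of DDIT4L. The Spearman correlation of DDIT4L with DDIT4 was -0.36 over 20 libraries and -0.30 over 18.

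Glucocorticoid-induced genes had lower estimates at year 2 in Control for 11 of 12, with a median log2 change of -0.45, beside 0.00 over all genes, and -0.42 without animals 001 and 009. TAT and KLF9 had the smallest p, with changes of -1.77 ± 0.63 and -0.90 ± 0.32 (SE, edgeR adjusted p = 0.309 for each), and -0.73 and -0.50 without animals 001 and 009. DESeq2 called TAT, with an adjusted p of 0.0313. In CR the median was 0.10 and 7 of 12 estimates were positive. No gene of the list passed edgeR's test. The list of ATF4 and its targets had medians of 0.17 in CR and -0.11 in Control. Among them PSAT1, an enzyme of serine synthesis, went from 332 ± 18.6 to 171 ± 49.9 CPM (SD, n = 5) in Control. Its edgeR adjusted p was 0.297 and its DESeq2 adjusted p 0.0148. PSAT1 also had the smallest edgeR p of that list between diets at year 0. It was lower in CR there, before the diets, and DESeq2 but not edgeR called that difference.

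The authors' deposited table of fold changes covers 3071 genes, without naming the comparison, and holds 0 of the 10 genes. It holds 29 genes of the wider lists, of which 7 have an adjusted p under 0.05 in the authors' deposited table. The share of all 3071 genes under that threshold was not counted, and how these genes were selected is not known. The 7 therefore cannot be read as a result about the lists. The smallest is that of MLXIP, with a log2 fold change of -0.998 and an adjusted p of 0.00573 in the authors' deposited table.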

How the data were processed

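Per the labels' protocols, total RNA of liver biopsies was made into TruSeq libraries and sequenced paired-end. The authors deposited expected counts (estimated reads per gene or transcript, 4.37% of the gene values not whole) and TPM, while the submitters' processing notes list STAR, RSEM, DESeq2 and the build Mmul_8.0.1 (also rheMac8), but neither versions nor roles. The authors' deposited table also holds log2 fold changes, p-values and a mean signal of normalized counts, per the file headers. Other FPKM tables were not used here. For annotation and strand setting, the choice is not given in the sources used here.

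Expected counts were rounded. Genes were kept by filterByExpr, scaled by TMM and tested with edgeR 4.0.16 (R 4.3.3), quasi-likelihood F test, robust, two-sided, Benjamini-Hochberg adjustment over all genes tested, threshold 0.05. Changes over 2 years came from 1 fit of 20 libraries with a term per animal, since both biopsies carry the same animal number in the labels, and diets were compared within each year in fits of 10 libraries. The correlation of an animal's deviations from the group means ran from -0.25 to 0.16 and was above 0.1 in 2 of 10 animals. CPM used TMM scaling, and log2 CPM a prior count of 1. A transcript was kept where 5 or more libraries held 10 counts of it and its mean share reached 5%. Alternatives used DESeq2 1.42.0, limma 3.58.1 on log2(TPM + 1) and log2(TPM + 0.1), relative log expression scaling, no filter, fits without the animal term or over both years, and left-out animals. The tests were tested on simulated data. Named genes are the 10, the 3 most like each, and, of the pathway lists, genes past the threshold or with the 2 smallest p per list and comparison described. Genes named for their correlation with DDIT4 or TXNIP, or as called without animals 001 and 009, were named after their values were seen. The 10 genes and all lists were chosen with earlier results of these data known. The labels do not say whether the animals were handled in batches.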

Additional observations from a re-analysis of the deposited data

Results flagged for a closer look

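In 40 groups of 5 libraries (10 genes in 4 groups), 4 held a library whose gap to its nearest neighbour took more of the group's range than Dixon's limit, and chance gives about 1 in 20 groups. For STK11, Control 001 at year 2 was the highest of its group with a gap of 0.908 of the range, and CR 004 at year 2 with 0.881. For RPTOR, CR 007 at year 2 was the highest of its group with 0.775. For DDIT4, Control 010 at year 2 was the highest of its group with 0.736. Of the 4 libraries, 1 was Control 001 or 009 at year 2, which also stood apart over all genes. The causes were not tested.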

How the results depend on the processing

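The 10 genes were called in 0 of 5 comparisons under each alternative run, and the transcript shares of TSC1 and TSC2 likewise stayed without a call in the fits run with and without the replicate block. The smallest adjusted p of any of the 10 genes under any alternative was 0.126. Of 850 log2 values under alternatives, 768 kept the sign and 82 reversed it, in 26 of the 50 results, mostly near 0. The causes were not tested.

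Without animals 001 and 009, the change in Control became 0.14 for PRKAA1, 0.24 for PRKAA2, 0.041 for MTOR, -0.54 for TSC1, -0.27 for TSC2 and 0.42 for TXNIP. The difference of changes became -0.14 for PRKAA1, 0.52 for TSC1, 0.16 for TSC2 and -0.43 for TXNIP. The diet difference at year 2 became -0.19 for PRKAA2, 0.086 for STK11, -0.021 for MTOR and 0.22 for TSC1, and that at year 0 became 0.15 for DEPTOR.

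In the unpaired fit without the replicate block, the change in CR was -0.00072 for PRKAA1 and 0.048 for TXNIP, and the change in Control 0.046 for TXNIP; the block changed no call. By DESeq2 the diet difference of PRKAA2 at year 2 was -0.00011.

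With limma on log2(TPM + 1) and log2(TPM + 0.1), the change in CR was -0.10 and -0.10 for PRKAA1, and the change in Control 0.038 and 0.082 for PRKAA2 and 0.080 and 0.078 for TXNIP. The difference of changes was -0.037 and -0.040 for RPTOR and -0.20 and -0.20 for TXNIP. At year 2 the diet difference was -0.035 and -0.086 for PRKAA2, and -0.0041 for MTOR with the larger pseudocount. At year 0 it was 0.10 and 0.12 for RPTOR, 0.0035 and 0.0036 for TSC2, 0.087 and 0.11 for DEPTOR and 0.15 and 0.15 for TXNIP.

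Leaving out each animal in turn, the change in CR ran from -0.058 to 0.10 for PRKAA1, -0.065 to 0.040 for TSC1, -0.22 to 0.95 for DDIT4 and -0.23 to 0.24 for TXNIP. The change in Control ran from -0.30 to 0.15 for PRKAA2, -0.17 to 0.39 for TSC1, -0.0079 to 0.40 for TSC2 and -0.44 to 0.17 for TXNIP. The difference of changes ran from -0.40 to 0.0069 for STK11, -0.19 to 0.083 for MTOR, -0.41 to 0.15 for TSC1 and -0.18 to 0.43 for TXNIP. At year 2 the diet difference ran from -0.25 to 0.17 for PRKAA2, -0.56 to 0.15 for STK11, -0.035 to 0.17 for MTOR and -0.49 to 0.29 for TXNIP. At year 0 it ran from -0.10 to 0.0092 for RPTOR, -0.26 to 0.094 for DEPTOR and -0.25 to 0.39 for TXNIP. Depth limits PRKAA2 most, at 7 to 58 counts per library.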
